A study of Mus musculus with 2 samples.

Results

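The 32 genes described here are 22 immediate early genes and 10 heat shock genes, taken by symbol from the 27998 genes of the deposited tables, where each of the 32 was found. Transcripts had been counted as UMIs (unique molecular identifiers). The cells were non-parenchymal cells of the liver, which remain once hepatocytes are removed and include immune, endothelial and stromal types. A droplet library (10x Chromium 3' chemistry) came from PKM2ΔMAC mice, named for the loss of PKM2, the M2 form of pyruvate kinase, in macrophages. The other came from PKM2FL/FL mice, with floxed PKM2 alleles. Mice of both genotypes had been on an MCD diet, a feed without methionine and choline that makes the liver fatty, inflamed and scarred, for 8 weeks. Strain, age, the Cre driver and the number of mice behind a library are not stated in the labels. With 1 library per genotype there were no replicates, so nothing was tested between genotypes, and each difference describes these 2 libraries. Intervals in parentheses are 95% intervals that cover counting error only.

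Immediate early genes are switched on within minutes of a stimulus, without new protein synthesis. Serum response factor, CREB and NF-κB drive many of them, and their products include the AP-1 transcription factors and the phosphatases and RNA-decay proteins that end the same signals. Heat shock genes encode chaperones that hold or refold other proteins, and heat shock factor HSF1 drives the inducible ones through the heat shock element, inverted repeats of GAA. Both groups are also known to be switched on while tissue is digested and cells are held in suspension, and liver non-parenchymal cells are prepared in that way. With 1 library per genotype, any difference in handling between the libraries cannot be told apart from genotype.

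The inducible HSP70 genes Hspa1a (chromosome 17, 34969190 to 34972156, minus strand, mm10) and Hspa1b (chromosome 17, 34956436 to 34959238, minus strand) lie close together, and their log2 ratios between the libraries had the same sign in 9 of 11 cell classes. Their promoter windows are shown because the pair carries the same heat shock element at the same place, the 250 bases before each start site being taken from RefSeq (GRCm38.p6). Capitals mark the element, GAANNTTC, whose first base lies 104 bases before the start in both.
Hspa1a promoter, chr17:34972157-34972406, minus strand: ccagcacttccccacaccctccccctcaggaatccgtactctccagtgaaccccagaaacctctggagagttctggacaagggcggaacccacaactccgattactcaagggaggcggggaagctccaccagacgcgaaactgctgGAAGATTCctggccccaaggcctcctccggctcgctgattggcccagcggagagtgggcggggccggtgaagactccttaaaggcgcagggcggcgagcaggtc
Hspa1b promoter, chr17:34959239-34959488, minus strand: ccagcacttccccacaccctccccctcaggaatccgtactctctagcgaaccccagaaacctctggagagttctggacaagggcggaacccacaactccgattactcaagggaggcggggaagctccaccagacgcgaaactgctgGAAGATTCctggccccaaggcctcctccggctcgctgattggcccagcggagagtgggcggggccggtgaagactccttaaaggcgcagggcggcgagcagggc
The windows were 98.8% identical, the coding sequences 99.4%, and the 3' untranslated regions 48.4% of the longer one. Reads from the coding part of either gene could therefore fit both, and how the authors' counting treated such reads is not shown. The levels of Hspa1a and Hspa1b and their sum carry that uncertainty. The mitochondrial chaperonin genes Hspe1 and Hspd1 start on opposite strands of 1 stretch of chromosome 1 and share 1 heat shock element, shown because their levels were also compared as a pair. It has 4 GAA units in alternating direction, and capitals mark the inner pair, 84 bases before the Hspe1 start.
Hspe1 and Hspd1 shared element, chr1:55088054-55088081, plus strand: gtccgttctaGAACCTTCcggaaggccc
Of the 32 members, 26 had a RefSeq window, 19 immediate early and 7 heat shock genes; Egr1, Ier2, Rgs1, Hspa8, Hsp90aa1 and Hsp90ab1 had none in the table used. GAANNTTC, searched on both strands, lay in the windows of 5 of the 7 heat shock genes (Hspa1a, Hspa1b, Dnaja1, Hspd1 and Hspe1). It lay in 1 of the 19 immediate early genes (Jun) and in 6.72% of all 32544 windows. A gene was counted if any of its windows matched, while the shares of all windows count each window. Dnaja1 had 3 windows and Hspd1 had 2, and not all of them matched. A longer element with 1 more GAA unit, which contains GAANNTTC, lay in 2 heat shock genes, Hspd1 and Hspe1, and in 0.47% of all windows. The cAMP response element TGACGTCA was found in Btg2, Dusp1 and Ppp1r15a (1.55% of all windows) and the CArG box bound by serum response factor in Dusp5 and Zfp36 (1.48%). The AP-1 site TGANTCA was found in Zfp36l1 (6.73%), and TATAAA in Btg1, Fos and Zfp36l1 (12.3%). A match is a description of these letters, and no match says only that they are not in this window.

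The PKM2ΔMAC library held 8949 barcodes and 43134027 UMIs (median 3791 per barcode), against 10054 barcodes and 54519921 UMIs (median 4504.5) in the PKM2FL/FL library, and 17 barcodes were shared. Without the shared barcodes every summed level kept its call. Cells were assigned to classes from marker genes, none of them a member, and names end in "-like" because they rest on transcripts alone. The gate left 7342 PKM2ΔMAC and 8102 PKM2FL/FL cells, and 11 classes had at least 50 cells in each library. They ran from 2337 (PKM2ΔMAC) and 2168 (PKM2FL/FL) B-like cells to 50 (PKM2ΔMAC) and 64 (PKM2FL/FL) conventional dendritic-like cells. Kupffer-like cells, the resident liver macrophages (112 PKM2ΔMAC and 108 PKM2FL/FL cells), and endothelial-like cells (113 PKM2ΔMAC and 58 PKM2FL/FL cells) were shallow. Kupffer-like cells had medians of 1067 (PKM2ΔMAC) and 1007 (PKM2FL/FL) UMIs and endothelial-like cells of 916 (PKM2ΔMAC) and 1773.5 (PKM2FL/FL) UMIs, while the other classes had medians over 2000 UMIs. Each class detected all its measured markers, but endothelial-like cells had 1 of their own among their 10 leading genes. Pkm, the targeted gene, was lower in the PKM2ΔMAC library in 11 of 11 classes, from a ratio of 0.308 (0.18 to 0.509) in Kupffer-like cells to 0.821 (0.753 to 0.896) in CD8 T-like cells. These 3' tags need not lie in the deleted part, so they do not check the deletion.

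Immediate early genes together took up 1.38% of all UMIs in the PKM2ΔMAC library and 1.5% in the PKM2FL/FL library, and heat shock genes 0.856% in the PKM2ΔMAC library and 0.971% in the PKM2FL/FL library. Levels are given as CPM, UMIs per 1000000 UMIs of the class in that library. A summed level was called higher or lower when it lay at least 1.2-fold apart with an interval that leaves out equal levels. The immediate early sum was called lower in 2 of the 11 classes and higher in 2. Plasmacytoid dendritic-like cells, which secrete type I interferon, had the lowest ratio, with 11564 CPM (11413 to 11716) in the PKM2ΔMAC library, against 15133 CPM (14924 to 15344) in the PKM2FL/FL library (ratio 0.764, 0.75 to 0.779). In neutrophil-like cells it came to 18713 CPM (18524 to 18902) in the PKM2ΔMAC library, against 22561 CPM (22348 to 22776) in the PKM2FL/FL library (ratio 0.829, 0.818 to 0.841). Both lay lower in the PKM2ΔMAC library, with intervals that do not overlap. Within plasmacytoid dendritic-like cells, classical monocyte markers summed to 2015 CPM in the PKM2ΔMAC library and 1531 CPM in the PKM2FL/FL library (6 of 8 detected in PKM2ΔMAC, 8 in PKM2FL/FL). Neutrophil markers summed to 254 CPM in the PKM2ΔMAC library and 75.6 CPM in the PKM2FL/FL library (6 of 9 in PKM2ΔMAC, 8 in PKM2FL/FL), and endothelial markers to 165 CPM in the PKM2ΔMAC library and 84 CPM in the PKM2FL/FL library (8 of 9 in PKM2ΔMAC, 6 in PKM2FL/FL). Ccr9, which marks mature cells of this type, had a UMI in 92.1% (88.1 to 95.1) of PKM2ΔMAC and 80.8% (73.7 to 86.6) of PKM2FL/FL cells. The part of these in the lower immediate early level was not tested. Conventional dendritic-like cells, named for cells that prime T cells, went the other way, with 20124 CPM (19758 to 20495) in the PKM2ΔMAC library, against 15577 CPM (15293 to 15864) in the PKM2FL/FL library (ratio 1.29, 1.26 to 1.33). Under a stricter gate this call ended, at a log2 ratio of 0.21. Endothelial-like cells had 9825 CPM (9359 to 10309) in the PKM2ΔMAC library, against 8182 CPM (7773 to 8607) in the PKM2FL/FL library (ratio 1.2, 1.12 to 1.29). That call ended under 7 of 13 alternatives, and the log2 ratio came to 0.031 without the 10% of cells with the highest share. In the other 7 classes the ratio lay between 0.886 and 1.03.

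The heat shock sum was called lower in 3 classes and higher in 0. Kupffer-like cells had 4528 CPM (4219 to 4854) in the PKM2ΔMAC library, against 6858 CPM (6445 to 7289.6) in the PKM2FL/FL library (ratio 0.66, 0.601 to 0.725). CD4 T-like cells had 8194 CPM (8000.1 to 8391) in the PKM2ΔMAC library, against 10891 CPM (10753 to 11029.7) in the PKM2FL/FL library (ratio 0.752, 0.732 to 0.773). T-like cells with neither Cd4 nor Cd8 transcripts (other T-like cells) had 8906 CPM (8804 to 9009.5) in the PKM2ΔMAC library, against 10766 CPM (10677 to 10855) in the PKM2FL/FL library (ratio 0.827, 0.816 to 0.839). The PKM2ΔMAC library was the lower one in all 3. In other T-like cells the call ended with cells of 2 classes kept (log2 ratio -0.26) and when centred on the median of all genes (-0.21). The remaining lymphoid classes lay on the same side, with ratios of 0.854 in CD8 T-like, 0.872 in NK or ILC1-like and 0.953 in B-like cells. Classical monocyte-like cells (ratio 1.1) and conventional dendritic-like cells (1.14) were the only classes of the 11 above 1. The erythroid markers, RNA of red cells, summed to 11.4 CPM in the PKM2ΔMAC library and 5826 CPM in the PKM2FL/FL library within Kupffer-like cells (2 of 4 markers detected in PKM2ΔMAC and 4 of 4 in PKM2FL/FL). The classical monocyte markers summed to 745 CPM in the PKM2ΔMAC library and 533 CPM in the PKM2FL/FL library there (7 of 8 detected in PKM2ΔMAC and 5 of 8 in PKM2FL/FL), and basophil and mesothelial markers were at 0 in both. Lipid-associated macrophage markers summed to 347 CPM in the PKM2ΔMAC library and 812 CPM in the PKM2FL/FL library (6 of 7 detected in each), and neutrophil markers to 501 CPM in the PKM2ΔMAC library and 319.6 CPM in the PKM2FL/FL library (6 of 9 in each). The part of these lists in the Kupffer-like result was not tested.

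**Figure D1:**
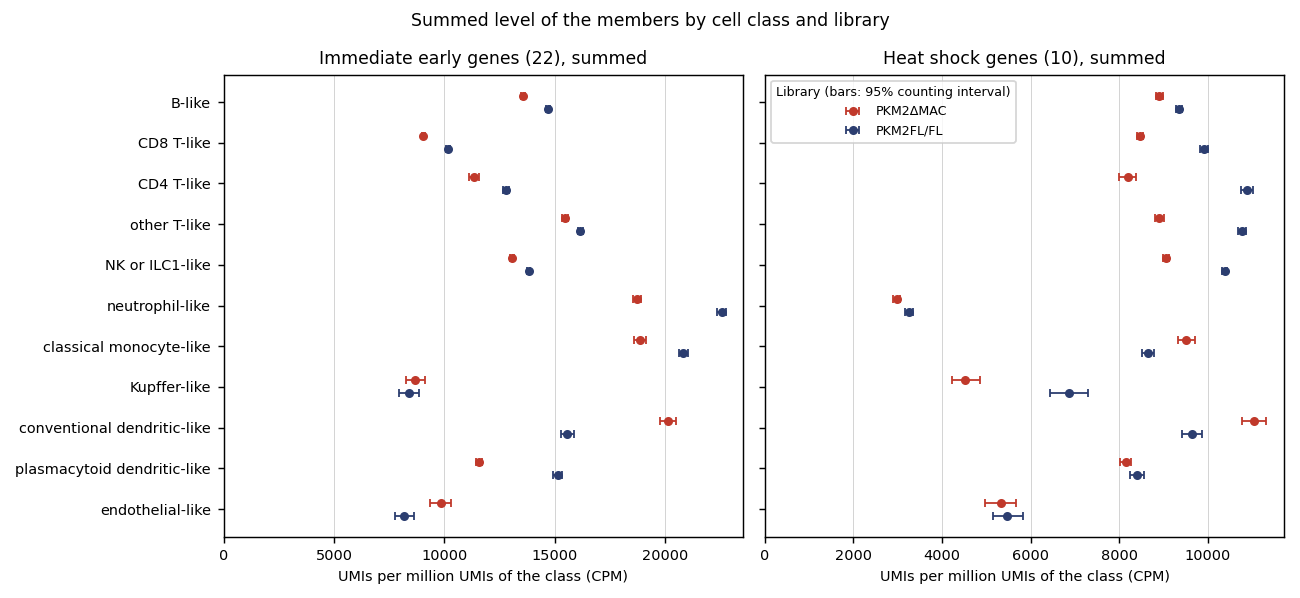
Summed levels of the 22 immediate early genes (left) and the 10 heat shock genes (right) in 11 cell classes, in CPM on axes that start at 0, with 95% counting intervals. The PKM2ΔMAC points lie to the left of the PKM2FL/FL points for immediate early genes in 8 of the 11 classes and for heat shock genes in 9, and neutrophil-like cells stand lowest for heat shock genes in both libraries, at 2976 CPM (PKM2ΔMAC) and 3251 CPM (PKM2FL/FL).

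Single members were counted as higher or lower when they lay at least 1.5-fold apart and had 20 or more UMIs in all. Each count is set beside the share of all genes measured in the class that did the same. In plasmacytoid dendritic-like cells 1 of 22 immediate early genes was higher and 10 were lower, where 8.59% and 12.6% of 8538 genes were. In conventional dendritic-like cells 7 were higher and 2 lower, beside 7.73% and 20.7% of all genes. In neutrophil-like cells 0 were higher and 7 lower, beside 4.66% and 23.3%. The share of members was near that of all genes there, and the median gene of the class was itself at a log2 ratio of -0.26. In endothelial-like cells 6 were higher (Rgs1, Btg1, Atf3, Dusp2, Nr4a1 and Ier2) and 0 lower, beside 14.0% and 16.1%. The remaining classes held few such members. Immediate early genes numbered 0 higher and 3 lower in B-like cells (background 4.11% and 9.32%) and 0 and 0 in CD8 T-like cells (4.01% and 12.1%). CD4 T-like cells held 0 and 3 (9.52% and 15.6%). They numbered 2 and 1 in other T-like cells (6.13% and 10.7%) and 1 and 0 in NK or ILC1-like cells (4.18% and 6.78%). There were 2 and 1 in classical monocyte-like cells (8.58% and 13.1%) and 1 and 2 in Kupffer-like cells (14.3% and 15.7%). Of the heat shock genes, 6 of the 9 with 20 UMIs were lower in Kupffer-like cells and 0 higher, against the same 15.7% and 14.3%. Elsewhere 0 were lower, and those higher were 1 in classical monocyte-like, 2 in conventional dendritic-like and 2 in endothelial-like cells. The median log2 ratio of all genes ran from -0.26 in neutrophil-like to -0.0049 in endothelial-like cells. For single members, counts of classes on either side of equal levels are therefore also given relative to it where they change. The heat shock sums of B-like cells (log2 ratio -0.070, median gene -0.078) and neutrophil-like cells (-0.13, median gene -0.26) were below equal levels but above the median gene.

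**Figure D2:**
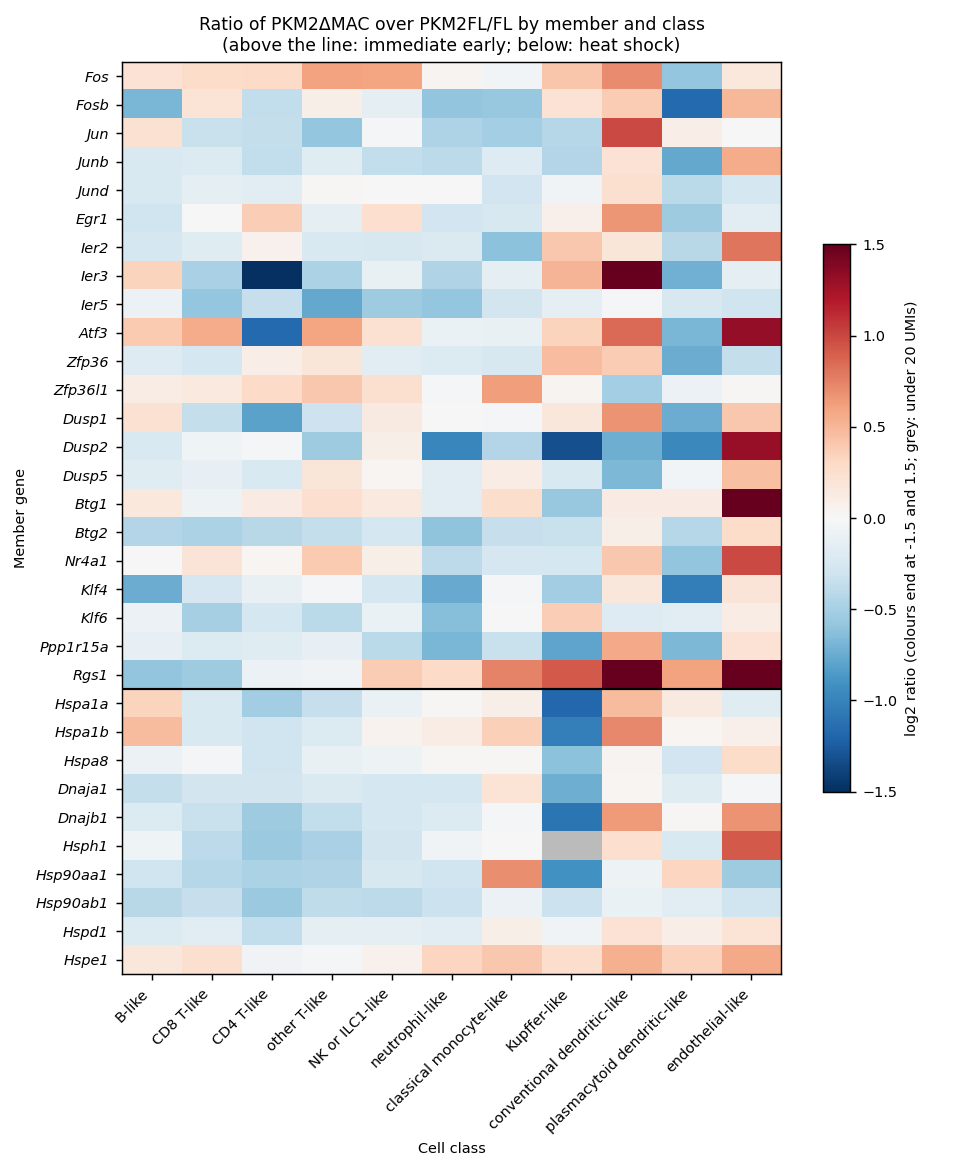
Log2 ratios (PKM2ΔMAC over PKM2FL/FL) of the 32 members (rows) in 11 classes (columns), red for higher and blue for lower in the PKM2ΔMAC library, grey for under 20 UMIs. The plasmacytoid dendritic-like column is blue for 19 of 22 immediate early genes, the conventional dendritic-like column red for 17, and the Kupffer-like column blue for 8 of 9 measured heat shock genes.

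Levels were ranked over the 11 compared classes alone. The class with the highest level was the same in both libraries for 14 of 22 immediate early genes and 6 of 10 heat shock genes. The AP-1 gene Fos (chromosome 12, 85473890 to 85477273) was highest in classical monocyte-like cells (2342 CPM in PKM2ΔMAC and 2414 CPM in PKM2FL/FL), next to conventional dendritic-like cells at 2195 CPM in the PKM2ΔMAC library, with intervals that overlap. Junb, an AP-1 subunit that can restrain Jun, was highest in other T-like cells (3708 CPM in PKM2ΔMAC and 4222 CPM in PKM2FL/FL) and lowest in Kupffer-like cells (688 CPM in PKM2ΔMAC and 932 CPM in PKM2FL/FL). Jund, the AP-1 subunit found in resting cells, was highest in B-like cells (2534 CPM in PKM2ΔMAC and 2957 CPM in PKM2FL/FL). B-like cells also had the highest Dusp2, a nuclear phosphatase of MAP kinases, at 574 CPM in PKM2ΔMAC and 672 CPM in PKM2FL/FL, with an interval that overlaps that of another class in the PKM2FL/FL library. Myeloid cells led for the stress factor Atf3, which had 956 CPM in PKM2ΔMAC and 1033 CPM in PKM2FL/FL in classical monocyte-like cells and 1233 CPM in PKM2ΔMAC and 685 CPM in PKM2FL/FL in conventional dendritic-like cells, against 18.2 CPM in PKM2ΔMAC and 12.4 CPM in PKM2FL/FL in CD8 T-like cells. Ier3, a survival gene, had 791 CPM in PKM2ΔMAC and 878 CPM in PKM2FL/FL in classical monocyte-like cells and 16.3 CPM in PKM2ΔMAC and 13 CPM in PKM2FL/FL in B-like cells. Neutrophil-like cells led for Btg1, an antiproliferative gene (3652 CPM in PKM2ΔMAC and 4084 CPM in PKM2FL/FL), and for Dusp1, which switches off the p38 and JNK kinases (1681 CPM in PKM2ΔMAC and 1689 CPM in PKM2FL/FL). Rgs1, which dampens chemokine receptor signals, was highest in Kupffer-like cells (1132 CPM in PKM2ΔMAC and 599 CPM in PKM2FL/FL) and lay at 32.4 CPM in PKM2ΔMAC and 48.8 CPM in PKM2FL/FL in B-like cells. Outside the compared classes, basophil or mast-like cells (16 PKM2ΔMAC and 26 PKM2FL/FL cells) had more Rgs1, 2343 CPM in PKM2ΔMAC and 3063 CPM in PKM2FL/FL, than any compared class. Their Hspa8 came to 3219 CPM (2848 to 3625) in PKM2ΔMAC and 4079 CPM (3736 to 4444) in PKM2FL/FL, above the compared classes with intervals apart in the PKM2FL/FL library alone. Other members were affected too. The Ier genes together had 6900 CPM (PKM2ΔMAC) and 9103 CPM (PKM2FL/FL) in basophil or mast-like cells, above every compared class. The immediate early sum was also above every compared class there, at 37150 CPM (PKM2ΔMAC) and 52892 CPM (PKM2FL/FL). The same held in mesothelial-like cells (21 PKM2ΔMAC and 15 PKM2FL/FL cells), at 48218 CPM (PKM2ΔMAC) and 32423 CPM (PKM2FL/FL). Dusp5, a nuclear phosphatase of ERK, and Ier2 were highest in NK or ILC1-like cells, Dusp5 at 524 CPM in PKM2ΔMAC and 511 CPM in PKM2FL/FL and Ier2 at 639 CPM in PKM2ΔMAC and 752 CPM in PKM2FL/FL, where the Ier2 interval overlaps that of CD4 T-like cells in the PKM2ΔMAC library. Egr1, a zinc finger factor of growth signals, was highest in endothelial-like cells (431 CPM in PKM2ΔMAC and 480.3 CPM in PKM2FL/FL), with intervals that overlap those of Kupffer-like cells (330.0 CPM in PKM2ΔMAC and 313 CPM in PKM2FL/FL).

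The heat shock genes had 1 feature in common across classes. Neutrophil-like cells held the lowest level of 8 of the 10 members in the PKM2ΔMAC library, all but Dnaja1 and Dnajb1, which were lowest in Kupffer-like cells, and of the same 8 in the PKM2FL/FL library, where Dnaja1 and Dnajb1 were lowest in endothelial-like cells. Hsp90ab1, the constitutive cytosolic HSP90, had 535 CPM in PKM2ΔMAC and 667 CPM in PKM2FL/FL there and 2516 CPM in PKM2ΔMAC and 3203 CPM in PKM2FL/FL in CD8 T-like cells, its highest class. Hspa8, the constitutive HSC70, was highest in classical monocyte-like cells (2934 CPM in PKM2ΔMAC and 2898 CPM in PKM2FL/FL) and lay at 952 CPM in PKM2ΔMAC and 939 CPM in PKM2FL/FL in neutrophil-like cells. Hspa1a was highest in conventional dendritic-like cells (1943 CPM in PKM2ΔMAC and 1399 CPM in PKM2FL/FL) and lay at 177 CPM in PKM2ΔMAC and 174 CPM in PKM2FL/FL in neutrophil-like cells. Hspe1, the cochaperonin HSP10, was highest in CD8 T-like cells (577 CPM in PKM2ΔMAC and 489.7 CPM in PKM2FL/FL), and its partner Hspd1, the chaperonin HSP60, in NK or ILC1-like cells (234 CPM in PKM2ΔMAC and 256 CPM in PKM2FL/FL).

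**Figure D3:**
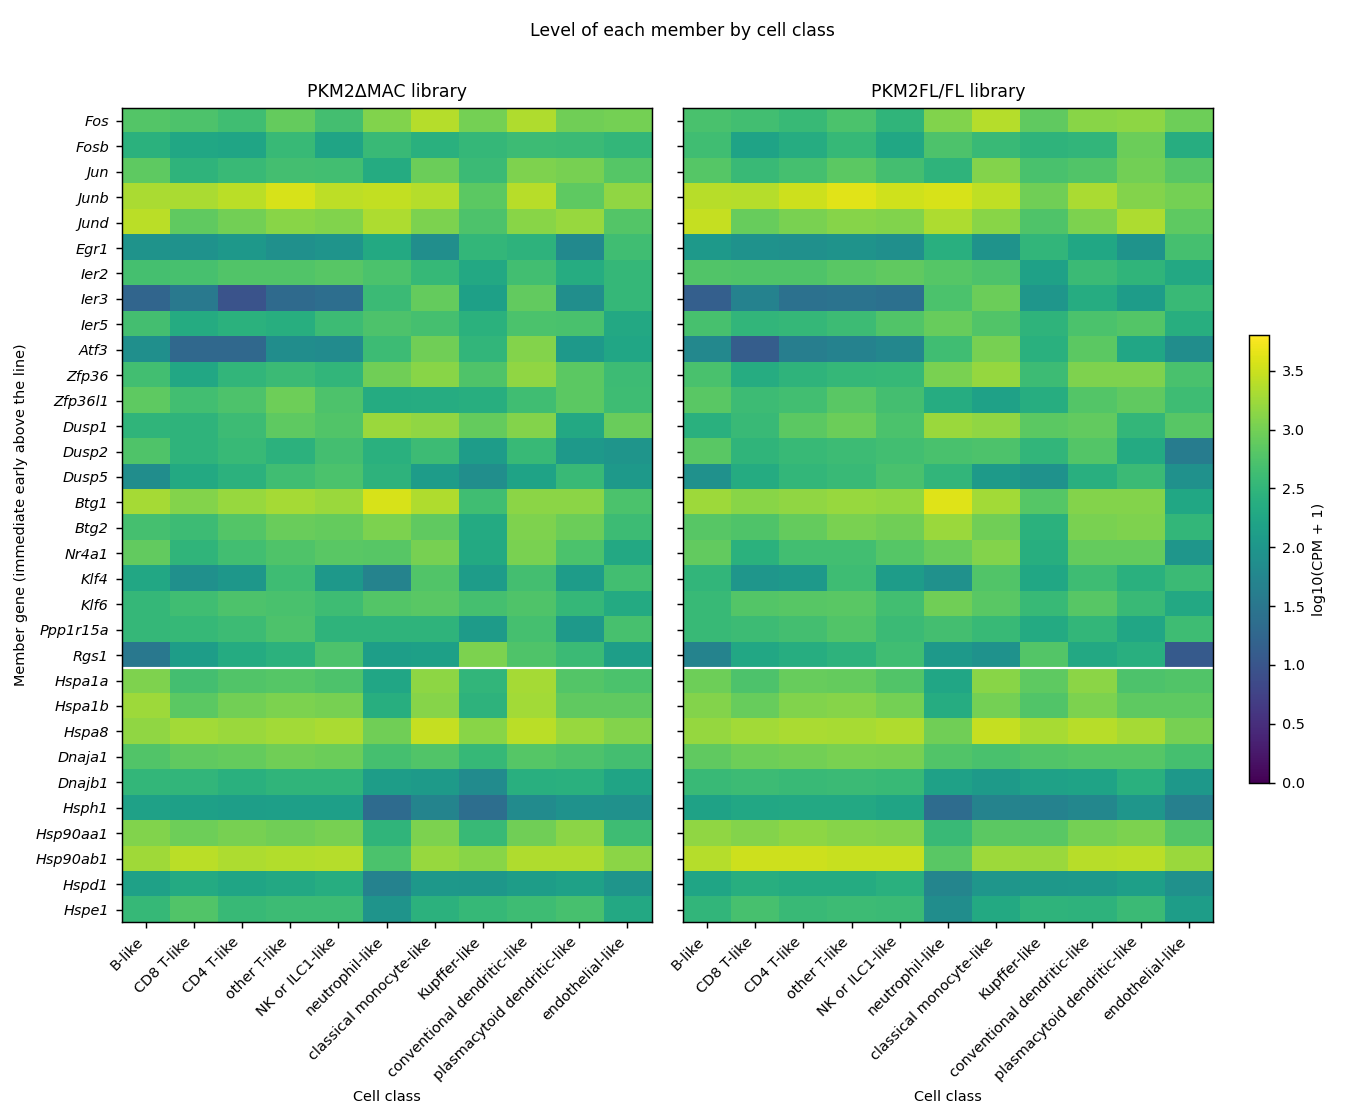
Levels of the 32 members in 11 classes, as log10 of CPM plus 1, in the PKM2ΔMAC library (left) and the PKM2FL/FL library (right). Both panels show the same outline, with low Atf3 and Ier3 in lymphoid columns and low heat shock genes in the neutrophil-like column.

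Fos and its partners did not move as a block. Fos was higher in the PKM2ΔMAC library in 9 of 11 classes, with intervals above equal levels in 7, and in 10 relative to the median gene. Other T-like cells had 804 CPM (774 to 836) in the PKM2ΔMAC library, against 531 CPM (511 to 551) in the PKM2FL/FL library (ratio 1.51, 1.44 to 1.6). NK or ILC1-like cells had 464 CPM (449.7 to 478) in the PKM2ΔMAC library, against 307 CPM (297 to 316) in the PKM2FL/FL library (ratio 1.51, 1.45 to 1.58). The intervals of the libraries do not overlap in either class. The make-up of NK or ILC1-like cells differed. Klra8, an NK receptor, had a UMI in 33.9% (31.6 to 36.3) of PKM2ΔMAC and 43.8% (41.8 to 45.9) of PKM2FL/FL cells. Klra4, another, had one in 29.9% (27.7 to 32.2) of PKM2ΔMAC and 36.5% (34.5 to 38.5) of PKM2FL/FL cells. Il7r, higher on ILC1, had one in 51.0% (48.5 to 53.4) of PKM2ΔMAC and 44.4% (42.3 to 46.4) of PKM2FL/FL cells. The part of this make-up in the differences of single members in the class was not tested. Junb was lower in 9 of the same 11 classes, among them NK or ILC1-like cells with 2626 CPM (PKM2ΔMAC) against 3398 CPM (PKM2FL/FL), ratio 0.773 (0.76 to 0.785). Fos and Junb thus lay on opposite sides of equal levels in these cells. In plasmacytoid dendritic-like cells most AP-1 genes were lower. Fosb (chromosome 7, 19302696 to 19310051), a Fos relative with the lowest ratio of the 22 genes there, had 386 CPM (359 to 415) in the PKM2ΔMAC library, against 870.0 CPM (820.4 to 922) in the PKM2FL/FL library (ratio 0.444, 0.404 to 0.487). Junb had 731 CPM (694 to 770.2) in the PKM2ΔMAC library, against 1249.7 CPM (1190.2 to 1311) in the PKM2FL/FL library (ratio 0.585, 0.545 to 0.628). Fos had 961 CPM (918 to 1006) in the PKM2ΔMAC library, against 1436 CPM (1372 to 1502) in the PKM2FL/FL library (ratio 0.669, 0.628 to 0.714). Each of these 3 was lower with intervals apart, while Jun, the kinase-activated AP-1 subunit, had 1053 CPM (PKM2ΔMAC) against 982 CPM (PKM2FL/FL), ratio 1.07 (1.0 to 1.15). After thinning to 2000 UMIs per cell, Fos had a UMI in 47.8% (41.2 to 54.5, 70.9% unthinned) of 230 cells in the PKM2ΔMAC library, against 71.4% (63.4 to 78.6, 82.1% unthinned) of 147 cells in the PKM2FL/FL library. In B-like cells it had a UMI in 45.2% (43 to 47.3, 52.3% unthinned) of 2108 cells in the PKM2ΔMAC library, against 44.7% (42.6 to 46.9, 55.2% unthinned) of 2070 cells in the PKM2FL/FL library. In conventional dendritic-like cells Jun had 1168 CPM (1081 to 1260.5) in the PKM2ΔMAC library, against 586 CPM (532 to 644) in the PKM2FL/FL library (ratio 1.99, 1.76 to 2.26). Atf3 had 1233 CPM (PKM2ΔMAC) against 685 CPM (PKM2FL/FL), ratio 1.8 (1.6 to 2.02) there and Fos had 2195 CPM (PKM2ΔMAC) against 1342 CPM (PKM2FL/FL), ratio 1.64 (1.5 to 1.78), so all 3 were higher in the PKM2ΔMAC library. In B-like cells Fosb had 271 CPM (PKM2ΔMAC) against 436 CPM (PKM2FL/FL), ratio 0.62 (0.586 to 0.657). Junb had 2111 CPM (PKM2ΔMAC) against 2472 CPM (PKM2FL/FL), ratio 0.854 (0.836 to 0.873) and Jund 2534 CPM (PKM2ΔMAC) against 2957 CPM (PKM2FL/FL), ratio 0.857 (0.84 to 0.874), and all 3 were lower.

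Among the other transcription factors, Klf4, a zinc finger factor of monocytes and resting lymphocytes, was lower in 9 classes, and in 7 relative to the median gene. B-like cells had 191 CPM (181 to 202) in the PKM2ΔMAC library, against 319 CPM (307 to 333) in the PKM2FL/FL library (ratio 0.598, 0.559 to 0.64). Plasmacytoid dendritic-like cells had 125 CPM (PKM2ΔMAC) against 257 CPM (PKM2FL/FL), ratio 0.488 (0.412 to 0.577). The Klf4 intervals of the libraries do not overlap in either class, and Klf4 lay at 415 CPM (PKM2ΔMAC) against 423 CPM (PKM2FL/FL), ratio 0.982 (0.917 to 1.05) in other T-like cells. Nr4a1, an orphan nuclear receptor induced by antigen receptor signals, had 528 CPM (PKM2ΔMAC) against 797 CPM (PKM2FL/FL), ratio 0.662 (0.607 to 0.722) in plasmacytoid dendritic-like cells and 757 CPM (PKM2ΔMAC) against 759 CPM (PKM2FL/FL), ratio 0.998 (0.961 to 1.04) in B-like cells. Klf6 was lower in CD8 T-like cells at 429.9 CPM (PKM2ΔMAC) against 607 CPM (PKM2FL/FL), ratio 0.708 (0.675 to 0.743) and in neutrophil-like cells at 599 CPM (PKM2ΔMAC) against 931 CPM (PKM2FL/FL), ratio 0.644 (0.598 to 0.693). Egr1 had 287 CPM (PKM2ΔMAC) against 181 CPM (PKM2FL/FL), ratio 1.59 (1.25 to 2.01) in conventional dendritic-like cells.

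The Ier genes are named for early induction. Ier5, which binds HSF1 and a phosphatase, was lower in all 11 classes, with an interval below equal levels in 8. It was lower by less than 1.5-fold in 9 of them. Relative to the median gene it was lower in 10, all but conventional dendritic-like cells (log2 ratio -0.019). It had 239 CPM (PKM2ΔMAC) against 407 CPM (PKM2FL/FL), ratio 0.587 (0.54 to 0.637) in other T-like and 546 CPM (PKM2ΔMAC) against 819 CPM (PKM2FL/FL), ratio 0.666 (0.616 to 0.72) in neutrophil-like cells. Ier3 and Ier2 differed in direction between classes. Ier3 had the largest ratio of any immediate early gene in conventional dendritic-like cells, 766 CPM (696 to 841) in the PKM2ΔMAC library, against 227 CPM (194 to 264) in the PKM2FL/FL library (ratio 3.37, 2.82 to 4.06). In CD4 T-like cells, where Ier3 is low, it had 7 (PKM2ΔMAC) and 55 (PKM2FL/FL) UMIs (ratio 0.336, 0.129 to 0.739), and with cells of 2 classes kept its log2 ratio there was 0.48. Ier2 was lower in classical monocyte-like cells, at 351 CPM (PKM2ΔMAC) against 539 CPM (PKM2FL/FL), ratio 0.651 (0.577 to 0.733).

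Genes that end signals split by gene. Dusp2 was lower in 9 classes (7 relative to the median gene), with 259 CPM (237 to 282) in the PKM2ΔMAC library, against 511 CPM (479 to 544) in the PKM2FL/FL library (ratio 0.507, 0.455 to 0.565) in neutrophil-like cells. It had 125 CPM (PKM2ΔMAC) against 313 CPM (PKM2FL/FL), ratio 0.40 (0.23 to 0.677) in Kupffer-like cells, on 22 (PKM2ΔMAC) and 47 (PKM2FL/FL) UMIs. Dusp5 was lower in conventional dendritic-like cells, at 159 CPM (PKM2ΔMAC) against 253 CPM (PKM2FL/FL), ratio 0.629 (0.484 to 0.813). Dusp1 had 405 CPM (PKM2ΔMAC) against 704 CPM (PKM2FL/FL), ratio 0.575 (0.509 to 0.647) in CD4 T-like and 192 CPM (PKM2ΔMAC) against 322 CPM (PKM2FL/FL), ratio 0.597 (0.518 to 0.687) in plasmacytoid dendritic-like cells. The ratio was above 1 in conventional dendritic-like cells, at 1252 CPM (PKM2ΔMAC) against 783 CPM (PKM2FL/FL), ratio 1.6 (1.43 to 1.79). Ppp1r15a (GADD34), which restarts translation after stress, was lower in 9 classes, among them neutrophil-like cells at 292 CPM (PKM2ΔMAC) against 469 CPM (PKM2FL/FL), ratio 0.624 (0.561 to 0.693) and plasmacytoid dendritic-like cells at 111 CPM (PKM2ΔMAC) against 178 CPM (PKM2FL/FL), ratio 0.625 (0.517 to 0.755). Zfp36 (tristetraprolin), which destroys cytokine mRNAs, had 701 CPM (PKM2ΔMAC) against 1172 CPM (PKM2FL/FL), ratio 0.598 (0.556 to 0.644) in plasmacytoid dendritic-like cells. Its relative Zfp36l1 was higher in 8 classes (9 relative to the median gene), for example 228 CPM (PKM2ΔMAC) against 148 CPM (PKM2FL/FL), ratio 1.54 (1.3 to 1.84) in classical monocyte-like cells. Of the antiproliferative pair, Btg2 was lower in 9 classes and Btg1 higher in 8 (10 relative to the median gene). The values were 1113 CPM (PKM2ΔMAC) against 1694 CPM (PKM2FL/FL), ratio 0.657 (0.623 to 0.694) for Btg2 in neutrophil-like and 537 CPM (PKM2ΔMAC) against 186 CPM (PKM2FL/FL), ratio 2.9 (1.93 to 4.43) for Btg1 in endothelial-like cells. Rgs1 (chromosome 1, 144242296 to 144249242) had ratios past 1.5 in 5 classes. It had 1132 CPM (980.3 to 1301) in the PKM2ΔMAC library, against 599 CPM (482 to 737) in the PKM2FL/FL library (ratio 1.89, 1.47 to 2.45) in Kupffer-like cells. Conventional dendritic-like cells had 567 CPM (PKM2ΔMAC) against 194 CPM (PKM2FL/FL), ratio 2.91 (2.39 to 3.57). In plasmacytoid dendritic-like cells, where most other members were lower, Rgs1 had 383 CPM (PKM2ΔMAC) against 251 CPM (PKM2FL/FL), ratio 1.52 (1.34 to 1.74). Endothelial-like cells had 23 (PKM2ΔMAC) and 2 (PKM2FL/FL) Rgs1 UMIs (ratio 12.4, 3.07 to 109), and in B-like cells Rgs1 was lower, at 32.4 CPM (PKM2ΔMAC) against 48.8 CPM (PKM2FL/FL), ratio 0.664 (0.559 to 0.788).

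In neutrophil-like cells the immediate early call depended on how levels were scaled. The neutrophil markers themselves summed to 152710.0 CPM in the PKM2ΔMAC library and 99287 CPM in the PKM2FL/FL library, and their part in the lower levels was not tested. Centred on the median of all genes, the immediate early log2 ratio was -0.010 and not called. The heat shock sum there had 2976 CPM (PKM2ΔMAC) against 3251 CPM (PKM2FL/FL), ratio 0.915 (0.883 to 0.949). Over the alternatives its log2 ratio ran from -0.32 to 0.13. Conventional dendritic-like cells rest on 50 PKM2ΔMAC and 64 PKM2FL/FL cells. Mgl2, a marker of one subset, was found in 40.0% (26.4 to 54.8) of them in the PKM2ΔMAC library and in 9.38% (3.52 to 19.3) in the PKM2FL/FL library. Ccl22, of mature cells, was found in 12% (4.53 to 24.3) in the PKM2ΔMAC library and 25% (15 to 37.4) in the PKM2FL/FL library. The part of this make-up in the higher immediate early level was not tested. Without the cells that held Fscn1 or Ccl22 (leaving 41 PKM2ΔMAC and 44 PKM2FL/FL cells) the immediate early call held and the heat shock log2 ratio was 0.38.

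The inducible HSP70 genes lay on opposite sides in different classes. In B-like cells Hspa1a had 1145 CPM (1119 to 1171) in the PKM2ΔMAC library, against 906 CPM (885 to 928) in the PKM2FL/FL library (ratio 1.26, 1.22 to 1.31). Hspa1b had 1751 CPM (1719.8 to 1783) in the PKM2ΔMAC library, against 1264 CPM (1239 to 1289.8) in the PKM2FL/FL library (ratio 1.39, 1.35 to 1.42). Both were higher in the PKM2ΔMAC library. In Kupffer-like cells Hspa1a had 319 CPM (241 to 414) in the PKM2ΔMAC library, against 719 CPM (589.9 to 868) in the PKM2FL/FL library (ratio 0.443, 0.315 to 0.617), on 56 (PKM2ΔMAC) and 108 (PKM2FL/FL) UMIs. Hspa1b had 284 CPM (211 to 375) in the PKM2ΔMAC library, against 579 CPM (464 to 714) in the PKM2FL/FL library (ratio 0.491, 0.34 to 0.703), on 50 (PKM2ΔMAC) and 87 (PKM2FL/FL) UMIs. Both were lower there. Conventional dendritic-like cells had 1943 CPM (PKM2ΔMAC) against 1399 CPM (PKM2FL/FL), ratio 1.39 (1.27 to 1.51) for Hspa1a and 1859 CPM (PKM2ΔMAC) against 1126 CPM (PKM2FL/FL), ratio 1.65 (1.51 to 1.81) for Hspa1b. In CD4 T-like cells Hspa1a had 577 CPM (PKM2ΔMAC) against 828 CPM (PKM2FL/FL), ratio 0.697 (0.629 to 0.771). Thinned to 2000 UMIs, Hspa1b had a UMI in 45% (42.8 to 47.1, 48.4% unthinned) of 2108 cells in the PKM2ΔMAC library, against 44.3% (42.1 to 46.5, 50.4% unthinned) of 2070 cells in the PKM2FL/FL library among B-like cells. Among neutrophil-like cells, a class that is low in the gene, the share was 9.91% (7.53 to 12.7, 15.4% unthinned) of 545 cells in the PKM2ΔMAC library, against 15.8% (12.7 to 19.4, 18.1% unthinned) of 474 cells in the PKM2FL/FL library. The share of B-like cells with a UMI thus differed by less than its counting interval, while the level was higher. Hspa8, the constitutive relative, had 1319.8 CPM (PKM2ΔMAC) against 2017 CPM (PKM2FL/FL), ratio 0.654 (0.549 to 0.779) in Kupffer-like cells and 1608 CPM (PKM2ΔMAC) against 1960.1 CPM (PKM2FL/FL), ratio 0.82 (0.778 to 0.865) in plasmacytoid dendritic-like cells. Its ratio lay within 0.811 to 1.21 in the other 9.

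HSP90 was lower in most classes. Hsp90ab1 (chromosome 17, 45567775 to 45573271) was lower in all 11 classes, with an interval below equal levels in 10, and lower than the median gene in 10, all but conventional dendritic-like cells. NK or ILC1-like cells had 2342 CPM (2310.5 to 2374) in the PKM2ΔMAC library, against 3075 CPM (3045 to 3106) in the PKM2FL/FL library (ratio 0.762, 0.749 to 0.774). CD4 T-like cells had 2175 CPM (PKM2ΔMAC) against 3189 CPM (PKM2FL/FL), ratio 0.682 (0.647 to 0.718). Hsp90aa1, the inducible cytosolic form, was lower in 9 classes (8 relative to the median gene). Among them were CD8 T-like cells at 924 CPM (PKM2ΔMAC) against 1246 CPM (PKM2FL/FL), ratio 0.741 (0.717 to 0.767) and other T-like cells at 953 CPM (PKM2ΔMAC) against 1309 CPM (PKM2FL/FL), ratio 0.729 (0.698 to 0.76). It went the other way in classical monocyte-like cells, at 1128 CPM (PKM2ΔMAC) against 697 CPM (PKM2FL/FL), ratio 1.62 (1.5 to 1.75), and in plasmacytoid dendritic-like cells, at 1399 CPM (PKM2ΔMAC) against 1123 CPM (PKM2FL/FL), ratio 1.25 (1.17 to 1.33). Neither gene had a promoter window in the table used.

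The cochaperones were lower in the PKM2ΔMAC library in all 5 lymphoid classes, like HSP90, except that Hsph1 in B-like cells lay above the median gene. Dnaja1 and Dnajb1 encode J proteins that hand clients to HSP70. In B-like cells Dnaja1 had 584 CPM (PKM2ΔMAC) against 745 CPM (PKM2FL/FL), ratio 0.784 (0.752 to 0.816). In CD4 T-like cells Dnajb1 had 261 CPM (PKM2ΔMAC) against 378 CPM (PKM2FL/FL), ratio 0.691 (0.592 to 0.803). Hsph1 (HSP110), the exchange factor of HSP70, had 135 CPM (PKM2ΔMAC) against 198 CPM (PKM2FL/FL), ratio 0.681 (0.548 to 0.84) in CD4 T-like and 138 CPM (PKM2ΔMAC) against 192 CPM (PKM2FL/FL), ratio 0.716 (0.639 to 0.801) in other T-like cells. It had 4 (PKM2ΔMAC) and 7 (PKM2FL/FL) UMIs in Kupffer-like cells, where it was not counted. Dnajb1 was higher in conventional dendritic-like cells, at 252 CPM (PKM2ΔMAC) against 162 CPM (PKM2FL/FL), ratio 1.56 (1.21 to 2.0). The mitochondrial chaperonin pair, which shares the element shown above, did not go one way. Hspe1 was higher in 9 of 11 classes (10 relative to the median gene), with 577 CPM (560.1 to 595) in the PKM2ΔMAC library, against 489.7 CPM (472 to 508) in the PKM2FL/FL library (ratio 1.18, 1.12 to 1.24) in CD8 T-like cells. Plasmacytoid dendritic-like cells had 499 CPM (PKM2ΔMAC) against 393 CPM (PKM2FL/FL), ratio 1.27 (1.14 to 1.41). Hspd1 was lower in 7 of 11 classes (6 relative to the median gene), with intervals below equal levels in 4 and above in 0. It had 169 CPM (PKM2ΔMAC) against 218 CPM (PKM2FL/FL), ratio 0.773 (0.635 to 0.935) in CD4 T-like cells, and stayed under 1.5-fold in all 11 classes.

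The HSP70 pair went together within cells, with correlations that differed between classes. Across cells with at least 2000 UMIs, Pearson's r between Hspa1a and Hspa1b (log values of cells thinned to 2000 UMIs) was 0.79 in 2108 B-like cells of the PKM2ΔMAC library and 0.74 in 2070 of the PKM2FL/FL library. In neutrophil-like cells it was 0.44 in 545 cells of the PKM2ΔMAC library and 0.30 in 474 cells of the PKM2FL/FL library, the lowest of the classes with a value. In B-like cells Hspd1 and Hspe1 had 0.10 in the PKM2ΔMAC library and 0.11 in the PKM2FL/FL library. The cells of each value share a library, and the HSP70 coding sequences are near-identical. Low counts also lower r. Hspa1b had its lowest level in neutrophil-like cells, at 238 CPM (PKM2ΔMAC) and 221 CPM (PKM2FL/FL). Hspd1 reached at most 234 CPM (PKM2ΔMAC) and 256 CPM (PKM2FL/FL) in a compared class. The part of low counts in the low values was not tested. The immediate early and heat shock sums of a cell had r between 0.07 in neutrophil-like cells of the PKM2FL/FL library and 0.54 in plasmacytoid dendritic-like cells of the same library.

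The median cell showed how far a class sum rests on few cells. In B-like cells the median heat shock share was 0.567% (quartiles 0.372% and 1.08%) of a cell's UMIs in the PKM2ΔMAC library, against 0.717% (quartiles 0.487% and 1.13%) in the PKM2FL/FL library. The 95th percentile was 2.84% in the PKM2ΔMAC library, against 2.41% in the PKM2FL/FL library. The PKM2ΔMAC library thus had the lower median and the higher upper end. The 10% of its cells with the most heat shock UMIs held 34.8% of them, against 31.2% in the PKM2FL/FL library. That 10% is ranked by the number of these UMIs and not by share, so cells with many UMIs in all weigh more. In plasmacytoid dendritic-like cells the median immediate early share was 1.0% (quartiles 0.634% and 1.42%) of a cell's UMIs in the PKM2ΔMAC library, against 1.35% (quartiles 0.858% and 1.9%) in the PKM2FL/FL library. In neutrophil-like cells it was 1.78% (quartiles 1.37% and 2.28%) of a cell's UMIs in the PKM2ΔMAC library, against 2.24% (quartiles 1.77% and 2.81%) in the PKM2FL/FL library. Kupffer-like cells had immediate early medians of 0.302% (PKM2ΔMAC) and 0.358% (PKM2FL/FL). The 10% of Kupffer-like cells with the most immediate early UMIs, again ranked by number, held 69.8% (PKM2ΔMAC) and 67.9% (PKM2FL/FL) of them. Of all Kupffer-like cells 25 (PKM2ΔMAC) and 15 (PKM2FL/FL) had at least 2000 UMIs.

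**Figure D4:**
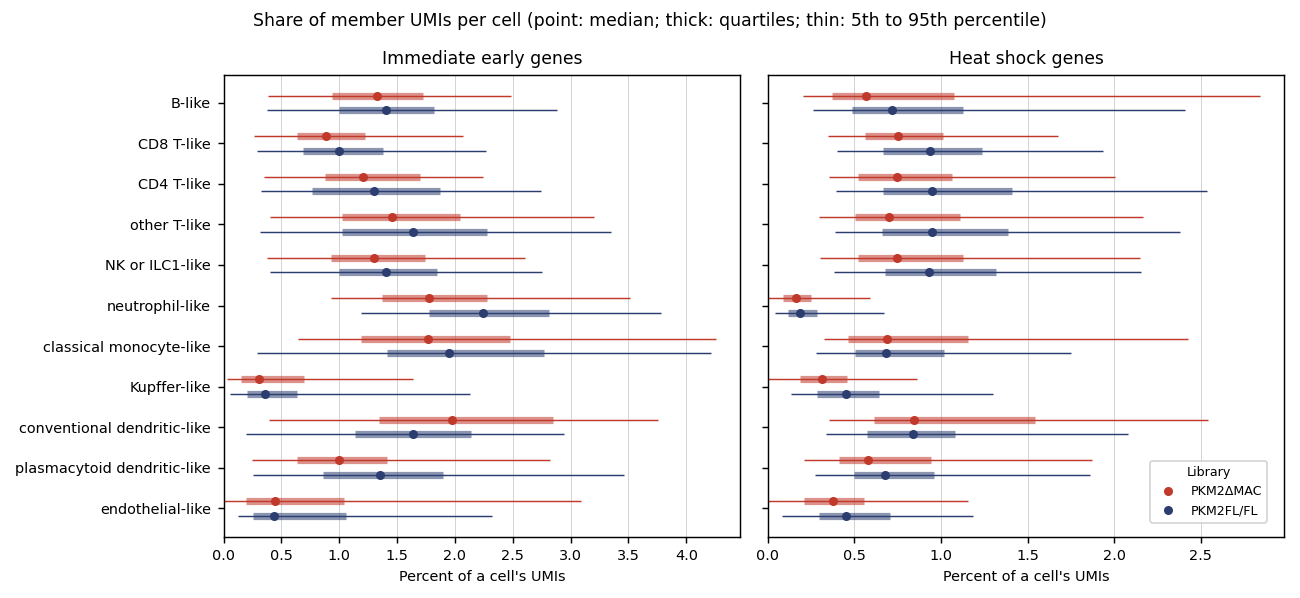
Percent of each cell's UMIs in immediate early genes (left) and heat shock genes (right) by class, as the median (point), quartiles (thick line) and 5th to 95th percentiles (thin line). On the left the PKM2ΔMAC medians lie below the PKM2FL/FL medians in all classes but conventional dendritic-like and endothelial-like cells. On the right they lie below in all classes but classical monocyte-like and conventional dendritic-like cells.

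Related lists were described by the same counts. The NF-κB feedback list, 8 targets that include inhibitors of the I-κB family, Tnfaip3, the subunit Relb and the cytokine Tnf, had a median below 0 in 10 of 11 classes. Tnf went the other way in some lymphoid classes, with 12.3 CPM (PKM2ΔMAC) against 7.64 CPM (PKM2FL/FL), ratio 1.62 (1.14 to 2.3) in B-like cells. Neutrophil-like cells had 0 of 8 measured genes 1.5-fold higher and 7 lower, with a median log2 ratio of -0.94. Of all genes there 4.66% higher and 23.3% lower passed the same thresholds, with a median of -0.26. Of the list, Nfkbie lay at 64.6 CPM (PKM2ΔMAC) against 152 CPM (PKM2FL/FL), ratio 0.424 (0.342 to 0.524) and Tnfaip3 at 295 CPM (PKM2ΔMAC) against 690.1 CPM (PKM2FL/FL), ratio 0.428 (0.388 to 0.472). Plasmacytoid dendritic-like cells had 0 of 8 measured genes 1.5-fold higher and 4 lower, with a median log2 ratio of -0.63 (all genes 8.59% higher and 12.6% lower). Nfkbia, the main cytosolic inhibitor, had 326 CPM (PKM2ΔMAC) against 978 CPM (PKM2FL/FL), ratio 0.333 (0.302 to 0.366) there. Kupffer-like cells had 0 of 3 measured genes 1.5-fold higher and 3 lower, with a median log2 ratio of -1.43 (all genes 14.3% higher and 15.7% lower). The other immediate early genes, a list without the members, had 1 of 23 measured genes 1.5-fold higher and 9 lower, with a median log2 ratio of -0.35 in plasmacytoid dendritic-like cells, where all genes had the shares given above. Gadd45g had 5.66 CPM (PKM2ΔMAC) against 31 CPM (PKM2FL/FL), ratio 0.182 (0.0845 to 0.361) and Maff 16.5 CPM (PKM2ΔMAC) against 44.6 CPM (PKM2FL/FL), ratio 0.369 (0.232 to 0.576). Endothelial-like cells had 9 of 18 measured genes 1.5-fold higher and 2 lower, with a median log2 ratio of 0.51 (all genes 14.0% higher and 16.1% lower). This list did not follow the higher sum of the members in conventional dendritic-like cells. There 4 of 23 measured genes were higher and 3 lower, with a median of 0.0019 (all genes 7.73% and 20.7%). Neutrophil-like cells had 2 of 25 higher and 7 lower, with a median of -0.34 (all genes 4.66% and 23.3%). The cold-inducible RNA-binding gene Cirbp was lower in 9 of 11 classes, with 59.6 CPM (PKM2ΔMAC) against 188 CPM (PKM2FL/FL), ratio 0.317 (0.283 to 0.354) in CD8 T-like cells. Its relative Rbm3 had 907 CPM (PKM2ΔMAC) against 980.0 CPM (PKM2FL/FL), ratio 0.926 (0.893 to 0.959) there. Glucocorticoid-responsive genes had 3 of 6 measured genes 1.5-fold higher and 0 lower, with a median log2 ratio of 0.63 in conventional dendritic-like cells (all genes 7.73% higher and 20.7% lower). Fkbp5 had 91 CPM (PKM2ΔMAC) against 20.4 CPM (PKM2FL/FL), ratio 4.46 (2.47 to 8.53) there and 85.1 CPM (PKM2ΔMAC) against 29.2 CPM (PKM2FL/FL), ratio 2.91 (2.07 to 4.12) in classical monocyte-like cells. The medians of the glucocorticoid-responsive list ran from -0.13 in neutrophil-like to 0.95 in endothelial-like cells. In endothelial-like cells 4 of 6 measured genes were 1.5-fold higher and 1 lower (all genes 14.0% and 16.1%). Chaperones of the endoplasmic reticulum, which follow the unfolded protein response and not HSF1, had 8 of 15 measured genes 1.5-fold higher and 0 lower, with a median log2 ratio of 0.59 in classical monocyte-like cells (all genes 8.58% higher and 13.1% lower). Sdf2l1 had 90.8 CPM (PKM2ΔMAC) against 41.3 CPM (PKM2FL/FL), ratio 2.2 (1.62 to 2.99) and Creld2 37.8 CPM (PKM2ΔMAC) against 19.2 CPM (PKM2FL/FL), ratio 1.98 (1.24 to 3.16). Other cytosolic chaperones had medians between -0.18 and 0.35 over the 11 classes. They did not follow the heat shock sum in the classes where that sum was called lower. Kupffer-like cells had 3 of 19 measured genes 1.5-fold higher and 0 lower (median 0.049, all genes 14.3% and 15.7%). CD4 T-like cells had 2 of 29 higher and 0 lower (0.078, all genes 9.52% and 15.6%). Other T-like cells had 1 of 29 higher and 1 lower (0.014, all genes 6.13% and 10.7%). Mitochondrial chaperones had medians between -0.46 and 0.46. Clock genes, whose levels turn with the time of day, had medians from -0.64 to 1.28, the lowest on 1 measured gene in Kupffer-like and the highest on 3 in endothelial-like cells. Mitochondrially encoded genes, whose share is high in damaged cells, had medians from -0.56 in Kupffer-like to 0.14 in CD8 T-like cells.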

How the data were processed

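The authors deposited raw UMI counts per gene and barcode, 1 table for each of the 2 libraries. Per the file headers, Cell Ranger 6.0.0 did the counting, and mm10 and Seurat 4.3.0 are named in the submitters' processing notes. From these counts, cells with at least 300 genes and under 20% mitochondrial UMIs were assigned to the class with the highest share of its markers detected (at least 3). Cells with at least 3 markers of a second class, at over 0.5 of the leading share, were left out as possible doublets; Scrublet, run in scanpy 1.11.5, was an alternative. 4 markers and 1 gene of the related lists are not in the tables. The rule of the gate was set after the counts were seen. UMIs were summed per class and library and given as CPM with exact Poisson 95% intervals, ratios with exact conditional intervals, and shares of cells with exact Clopper-Pearson intervals (numpy 2.4.6, scipy 1.17.1, pandas 2.3.3). UMIs are not fully independent molecules, so intervals cover counting error only. With 1 library per genotype no test was run. The intervals and folds were run on simulated counts drawn from the Poisson model that the intervals assume. That run therefore says nothing about variation between cells or mice. Members and lists were chosen with earlier results of these data known. All 32 members are accounted for; examples were to be the 3 highest and 3 lowest ratios of a group in a class among members with at least 50 UMIs, and further members were named by role after their values were seen. Alternatives changed the gate, doublets, scaling, depth, thresholds and members. Promoter windows came from RefSeq (GRCm38.p6). Levels of different genes were not compared.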

Additional observations from a re-analysis of the deposited data

Results flagged for a closer look

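Among members with at least 50 UMIs in a class and intervals that leave out equal levels, several lay at least 1.5-fold apart on opposite sides of equal levels in different cell classes, and none of these differences between classes was tested, since each rests on 1 library per genotype. Values are log2 ratios of PKM2ΔMAC over PKM2FL/FL, and the gap is the difference of both. Ier3 had a gap of 3.33, with 1.75 in conventional dendritic-like and -1.57 in CD4 T-like cells; with cells of 2 classes kept, the CD4 T-like value was 0.48. Rgs1 had a gap of 2.13, with 1.54 in conventional dendritic-like and -0.59 in B-like cells. Endothelial-like cells had fewer UMIs than that minimum for Rgs1 (log2 ratio 3.64 on 23 PKM2ΔMAC and 2 PKM2FL/FL UMIs), Atf3 (1.32 on 30 PKM2ΔMAC and 13 PKM2FL/FL UMIs) and Dusp2 (1.31 on 16 PKM2ΔMAC and 7 PKM2FL/FL UMIs). Between conventional dendritic-like and CD4 T-like cells, Atf3 had a gap of 2.02 (0.85 and -1.17) and Dusp1 a gap of 1.48 (0.68 and -0.80). The immediate early sum differed by 0.76 between conventional dendritic-like (0.37) and plasmacytoid dendritic-like cells (-0.39).

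Hspa1b had a gap of 1.75, with 0.72 in conventional dendritic-like and -1.03 in Kupffer-like cells, and Hsp90aa1 a gap of 1.60, with 0.69 in classical monocyte-like and -0.91 in Kupffer-like cells. Nr4a1 had a gap of 1.58, with 0.99 in endothelial-like and -0.60 in plasmacytoid dendritic-like cells, and the endothelial-like value turned to -0.15 under the mean of the cells' own CPM. Ier2 had a gap of 1.42, with 0.80 in endothelial-like and -0.62 in classical monocyte-like cells, and its endothelial-like value was -0.069 in cells thinned to 500 UMIs. The endothelial-like values rest on 33 (PKM2ΔMAC) and 18 (PKM2FL/FL) UMIs for Nr4a1 and on 58 (PKM2ΔMAC) and 36 (PKM2FL/FL) UMIs for Ier2.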

How the results depend on the processing

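Values are log2 ratios unless called counts. The heat shock call in Kupffer-like (-0.76 to -0.29) and CD4 T-like cells (-0.44 to -0.32) and the immediate early call in plasmacytoid dendritic-like cells (-0.56 to -0.31) held in 13 of 13 alternatives each. The endothelial-like immediate early call ended under the stricter gate (0.16), the mean of the cells' own CPM (0.13), thinning to 500 UMIs (0.15), Scrublet (0.18), the median of members (0.25), without Btg1, Jund, Rgs1, Hsp90ab1 and Hspa8 (0.23), and without the highest 10% of cells (0.031). This 10% was ranked by the members' share of a cell's UMIs. The immediate early call ended in conventional dendritic-like cells under the stricter gate (0.21) and in neutrophil-like cells with 2-class cells kept (-0.25) or centred on the median gene (-0.010); with 2-class cells kept, Kupffer-like cells were called higher (0.28). The heat shock call ended in other T-like cells with 2-class cells kept (-0.26) or centred (-0.21). Heat shock calls were gained in neutrophil-like cells under the stricter gate (-0.32) and thinning (-0.31), in CD8 T-like cells under the cells' own CPM (-0.26) and thinning (-0.29), in monocyte-like cells without those 5 members (0.30), and in conventional dendritic-like cells when centred (0.35), thinned (0.28), without those 5 members (0.39) or without Fscn1 or Ccl22 cells (0.38, chosen after seeing the data, like the highest 10%). The neutrophil-like heat shock value changed sign over the alternatives, from -0.32 to 0.13. Over 11 classes, 20 of 242 immediate early values were higher and 29 lower, and 5 of 109 heat shock values higher and 6 lower, where 4.01% to 14.3% of all genes in a class were higher and 6.78% to 23.3% lower. Heat shock values higher were 3 under the stricter gate, 2 with 2-class cells kept and 3 at 50 UMIs, and immediate early values lower were 18 when centred. At 2-fold, immediate early values were 6 higher and 5 lower, and heat shock values 0 higher and 3 lower; at 1.2-fold, they were 46 and 81, and 17 and 37. Single values turned round under the stricter gate for Hspa1b in neutrophil-like cells (-0.65), with 2-class cells kept for Ier3 in B-like (-0.62) and CD4 T-like cells (0.48) and Rgs1 in monocyte-like cells (-0.61), under the cells' own CPM for Nr4a1 in endothelial-like cells (-0.15), and thinned for Hspa1a (0.85) and Ier2 (-0.069) in endothelial-like cells. The cause was not tested. Kupffer-like and endothelial-like cells are limited by depth. No paired analysis was possible because each genotype has 1 library.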
